A study of Drosophila melanogaster with 2 samples.

Results

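Of the 5327 peaks of tagged fd59A that passed the authors' reproducibility threshold, 786 (14.8%, 95% Wilson interval 13.8 to 15.7) had a summit in an intron at more than 500 bp and at most 2000 bp from a start site. Each summit lay inside a protein-coding gene, in no annotated exon of any gene, and its distance was taken to the nearest start site of any protein-coding transcript. No measured signal entered that rule. The study was a chromatin immunoprecipitation sequencing (ChIP-seq) experiment, which maps where a protein sits on DNA by precipitating it with the chromatin it is bound to. The flies came from 1 transgenic line stably carrying fd59A with GFP (labelled eGFP in the description) at its C-terminus, and an antibody against GFP was used on whole prepupae, males and females pooled, with a labelled age of 24 day. Chromatin was sonicated to 200 to 800 bp. The 2 samples, biological replicates 2 and 3, formed 1 group. There is no control library among them, so binding of the tagged protein cannot be told apart from other enrichment. Whole animals were used, so the tissue behind a peak is not known.

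fd59A belongs to the forkhead family, transcription factors whose winged-helix domain reads short AT-rich sites around the core TAAACA. Introns close to a start site, above all the first intron, are common places for enhancers in flies, and many fly genes start transcription at alternative sites, so an intron of one transcript can lie just upstream of the start of another. The prepupa is the stage at which ecdysone pulses turn the larva into the pupa.

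The sequences below show what lay under 7 of the 8 strongest of these summits, and under 5 further ones chosen because they hold a forkhead core preceded by G or A, the forms GTAAACA and ATAAACA. Each runs from 50 bases before the summit to 50 after it, on the plus strand of dm6 from RefSeq. Capitals mark TAAACA or its reverse complement TGTTTA.
ush, chr2L:481040-481140: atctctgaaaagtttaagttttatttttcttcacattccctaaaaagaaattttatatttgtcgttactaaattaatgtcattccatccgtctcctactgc
CG11050, chr2L:6612662-6612762: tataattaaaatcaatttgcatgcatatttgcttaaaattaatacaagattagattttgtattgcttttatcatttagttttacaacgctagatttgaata
Lk6, chr3R:11761008-11761108: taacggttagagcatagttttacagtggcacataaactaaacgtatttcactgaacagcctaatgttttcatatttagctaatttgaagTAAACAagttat
CG9663, chr2L:3302137-3302237: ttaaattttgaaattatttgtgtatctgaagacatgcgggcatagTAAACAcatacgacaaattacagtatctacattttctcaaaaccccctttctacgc
CG32772, chrX:4910338-4910438: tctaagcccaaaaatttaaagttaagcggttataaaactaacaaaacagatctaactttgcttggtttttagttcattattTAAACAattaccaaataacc
CG4496, chr2L:7188579-7188679: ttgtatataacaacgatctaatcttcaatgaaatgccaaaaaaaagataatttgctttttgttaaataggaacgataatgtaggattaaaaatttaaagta
Trl, chr3L:14759472-14759572: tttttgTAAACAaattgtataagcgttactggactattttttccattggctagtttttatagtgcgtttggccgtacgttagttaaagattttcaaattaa
CG9837, chr3R:8811633-8811733: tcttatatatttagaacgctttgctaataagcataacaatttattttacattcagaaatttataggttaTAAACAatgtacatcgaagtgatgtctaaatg
Tlk, chrX:3748392-3748492: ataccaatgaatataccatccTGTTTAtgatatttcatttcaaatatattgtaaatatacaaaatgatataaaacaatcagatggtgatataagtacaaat
tsl, chr3R:21781579-21781679: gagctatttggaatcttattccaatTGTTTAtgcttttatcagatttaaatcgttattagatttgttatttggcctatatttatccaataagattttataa
dlp, chr3L:14634371-14634471: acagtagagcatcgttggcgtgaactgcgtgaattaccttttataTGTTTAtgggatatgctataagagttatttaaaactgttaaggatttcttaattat
Tpr2, chr2L:16492688-16492788: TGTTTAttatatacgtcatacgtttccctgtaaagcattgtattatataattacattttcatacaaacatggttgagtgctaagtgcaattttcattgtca
All 12 windows are rich in A and T. The core sits close to the summit in CG9663 and dlp and near an edge of the window in Lk6, Trl and Tpr2, while ush, CG11050 and CG4496, at ranks 1, 2 and 7 of the 786, hold none. HmgZ, at rank 3, is not shown and holds none either, nor do the summits at ranks 9 to 13. Of the 20 strongest, 5 hold the core, so the windows shown carry it more often than the strongest summits do.

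The strongest summits had signal values, the authors' own score for each region, far above the median of the class. The strongest was in ush, a gene for a cofactor of GATA factors, 1402 bp upstream of the start of the zinc finger gene cbt. Its signal was 2841 in the pooled list, 1199 in replicate 2 and 1629 in replicate 3. The next was in CG11050, 1025 bp downstream of its start, with values of 2671, 1222 and 1450.3 in the same order. Both ranked among the 4 strongest regions of each replicate. The CG11050 summit was also the member in the shortest intron, of 140 bp, and its window held 20.8% GC.

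HmgZ, an HMG-box chromatin gene, carried the next summit, 558 bp upstream of one of its own starts (2R, peak 21703190 to 21703679). It had 2504 in the pooled list, 956 in replicate 2 and 1543 in replicate 3. Lk6, a kinase of translation initiation factor eIF4E, followed with 2133, 1032 and 1100.2. CG9663 held a pair of summits 213 bp apart in a single listed interval, with pooled signals of 2115 and 1515. In all, 6 members lay in intervals that the authors' list repeats with more than 1 summit, 212 to 215 bp apart, so these are separate summits but not separate regions.

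The remaining members of the 20 strongest lay in or near regulators and chromatin genes as well as unnamed genes. Trl, which encodes the GAGA factor, had a summit 1527 bp downstream of its start, with 1649.8 in the pooled list, 661 in replicate 2 and 987 in replicate 3. ImpL2, a secreted binding protein of insulin-like peptides, had 1472, 621 and 846. Signals of 1326 and 1315 were found in chif, a replication-licensing gene related to Dbf4, and in simj, a subunit of the nucleosome remodelling complex NuRD. Adf1, edl and neur, which encode a Myb-related transcription factor, an antagonist of ETS factors and a ubiquitin ligase of Notch signalling, had 1182, 1106 and 1069.7. CG32772, CG4496, CG3726, CG9837, CG42327, Reph and Mhcl, a myosin-like gene, made up the rest, with 1153 to 1969. All 20 had a match in both replicates.

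The thresholded list was itself chosen for repeating between the same 2 replicates, so agreement between them is described here and is not independent evidence. A replicate summit within 100 bp was present in both lists for 731 (93.0%, 91.0 to 94.6), against a background of 92.7% over all 5327 peaks. Replicate 2 alone lacked a match for 26, replicate 3 alone for 25, and 4 had none in either. Signal over the members ran from 106 to 2841 with a median of 202 and quartiles of 139.9 and 354, beside a median of 193 over all peaks. In the replicates' own lists the members had a median of 88.3 (20.1 to 1222) in replicate 2 and 119.9 (27.8 to 1629) in replicate 3. The log2 ratio of replicate 3 to replicate 2 had a median of 0.41 and an SD of 0.48 over the 731, and the same median of 0.41 over all matched peaks. Its offset from 0 depends on the authors' scaling, which is not stated. Spearman's rank correlation between the replicate signals was 0.83 over these 731 summits, which were kept for agreeing in these same libraries and are not independent.

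**Figure D1:**
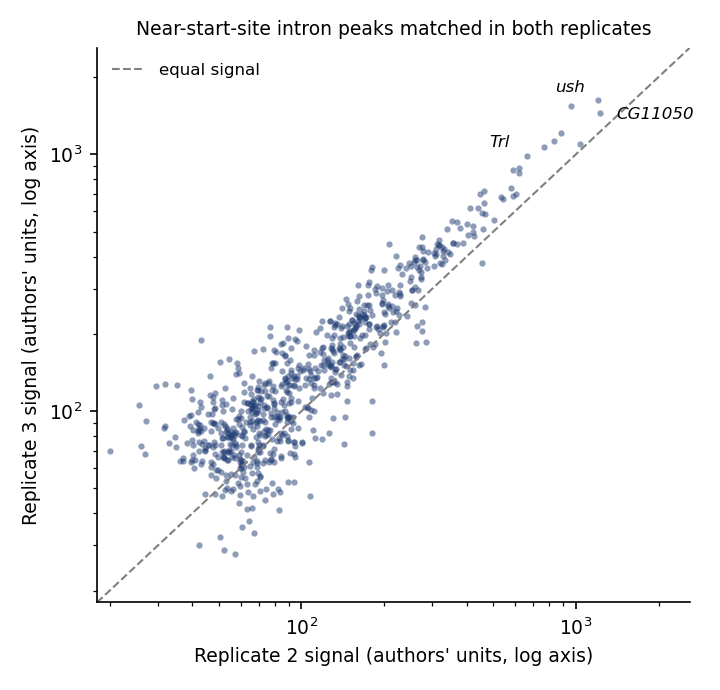
Signal in replicate 3 against signal in replicate 2, both in the authors' units on log axes, with 1 point for each of the 731 summits matched in both replicates and a dashed line at equal signal. Points rise together from about 20.1 to 1222 on the x axis, most lie above the line, and ush and CG11050 are at the top.

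The share matched in both replicates went with signal, which comes from the same reads. Among the 262 strongest, with a median signal of 453, 99.2% had a match in both replicates. The middle 262, with a median of 202, had 94.7%, and the weakest 262, with a median of 127, had 85.1%. Of all 786, 169 (21.5%, 18.8 to 24.5) were among the 1000 strongest peaks of the whole list, compared with 23.1% (21.1 to 25.2) of the peaks within 500 bp of a start site and 16.8% (15.1 to 18.7) of intron peaks over 2000 bp away. No test was made of these differences, since intervals over peaks reflect counting error alone.

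Summits were denser in this distance range than in introns farther away. The 786 lay in 9.94 Mb of intron that meets the positional rule, 7.22% of the main chromosomes, which is 79.1 summits per Mb (exact Poisson interval 73.7 to 84.8). The same number of strongest regions from 1 replicate gave 79.9 in replicate 2 and 78.2 in replicate 3. Introns over 2000 bp away had 41.3 per Mb (39.3 to 43.3), sequence within 500 bp of a start site 101.8 (96.9 to 107), and exons beyond 500 bp 5.04 (4.33 to 5.82). Background regions, the 22917 pooled regions overlapping no peak of the thresholded list, were also unevenly spread, with 236 per Mb in the same introns, 197 in the deeper ones and 85.5 in exons.

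Within the range, the density was lower at greater distances. It was 98.6 per Mb (85.2 to 113) at 500 to 750 bp, 81.6 at 750 to 1000 bp and 62.9 (50.7 to 77.2) at 1500 to 1750 bp. It was 73.2 at 1750 to 2000 bp, so the last step of the range was not the lowest. In introns within 250 bp of a start it was 142.5. Past the range it was 60.3 at 2000 to 2250 bp and 69.7 at 2500 to 2750 bp. The lowest step up to 5000 bp was 44.7, at 2750 to 3000 bp, and at 4750 to 5000 bp it was 57.7. Beyond 2000 bp there was thus no steady fall. Background regions had 245 per Mb at 500 to 750 bp and 254 at 1750 to 2000 bp. Median signal had no such gradient, at 203 in the nearest step and 205.5 in the farthest.

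**Figure D2:**
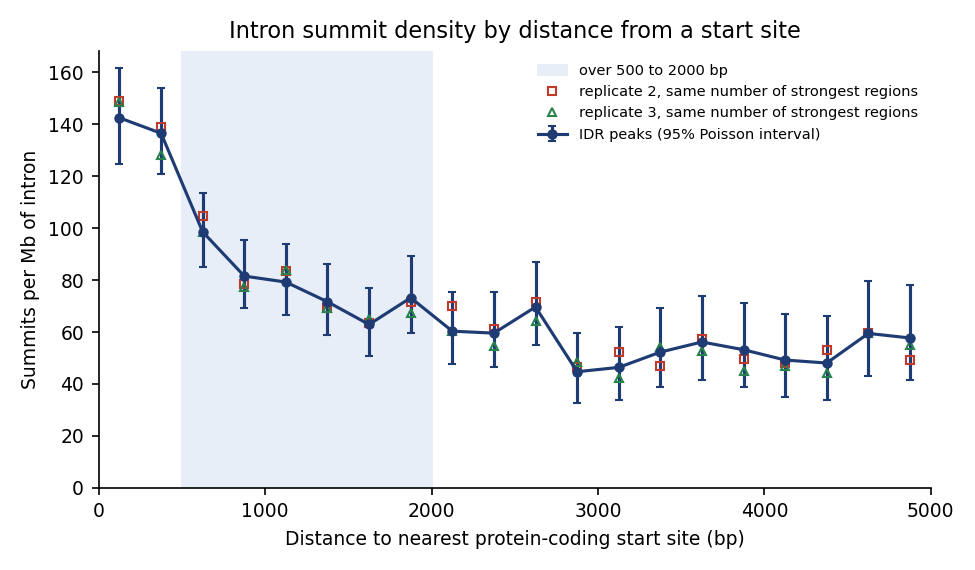
Summits per Mb of intron by distance to the nearest protein-coding start site, in steps of 250 bp, with exact 95% Poisson intervals on the thresholded peaks and open symbols for the strongest regions of each replicate. The density goes from 142.5 per Mb next to the start site through 98.6 at 500 to 750 bp to its lowest step, 44.7 at 2750 to 3000 bp. It is 57.7 at 4750 to 5000 bp, and both replicates follow the curve broadly.

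Summits lay on both sides of each edge of the range. Just outside 500 bp were summits in rols, at 499 bp with a signal of 184, and IP3K2, at 497 bp with 126. Just inside it were those in scrib, a cell polarity gene, at 502 bp with 199, and gce, a juvenile hormone receptor, at 503 bp with 425. At the other edge, summits in sky, at 1999 bp with 125, and Dys, the fly dystrophin, at 1995 bp with 129, were inside. Outside were those in px, at 2001 bp with 214, and in Raf, at 2002 bp from the start of Ilp6 with 205.04.

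Members lay mostly in first introns. A transcript of the host gene, the protein-coding gene around the summit, had the summit in its first intron for 653 (83.1%, 80.3 to 85.5). For 95 the earliest was the second intron, and for 38 a later one. First introns made up 66.4% of the eligible bases and held 99.0 summits per Mb (91.6 to 107), against 39.6 (33.1 to 47.0) in the other introns. Of 2343 background regions under the same positional rule, 74.5% (72.7 to 76.2) lay in a first intron, so the background shared part of that tilt.

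Short introns held few members. Introns of up to 300 bp, which supplied 0.926 Mb of eligible sequence, had 5 members, or 5.40 per Mb (1.75 to 12.6). Introns of 300 to 1000 bp had 46.7 per Mb (33.1 to 64.1). Above 1000 bp length made little difference, with 90.6 per Mb at 1000 to 3000 bp (76.2 to 107), 90.6 at 3000 to 10000 bp (79.7 to 103) and 90.7 in longer introns (81.5 to 100.6). Background regions also thinned out in short introns, to 84.2 per Mb up to 300 bp against 278 at 3000 to 10000 bp. Introns this short are no longer than many of the sheared fragments, so their signal cannot be told apart from that of the exons beside them.

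Members downstream and upstream of the start site had close values. Downstream of the nearest start were 524 members (66.7%, 63.3 to 69.9), where 67.5% of the eligible bases lie. The densities were 78.2 per Mb downstream (71.6 to 85.2) and 81.0 upstream (71.5 to 91.4). Median signal was 203 and 200.3, and mean GC content 33.7% and 33.0%. Of the 262 upstream members, 201 lay upstream of an alternative start of their own host, as in HmgZ, Lk6 and ImpL2. The nearest start belonged to the host gene for 709 (90.2%, 87.9 to 92.1). Of the other 77, 61 were upstream of the other gene's start, as at cbt inside ush.

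The large chromosome arms carried similar densities. They ran from 69.5 per Mb on 2L (57.7 to 82.9; 122 members) to 89.6 on X (76.9 to 104; 177 members), with 156 members on 2R, 155 on 3L and 176 on 3R. None lay on chromosomes 4 or Y, which hold 0.0877 and 0.0109 Mb of eligible sequence. The upper Poisson limit for chromosome 4 was 42.0 per Mb, below the lower limit of each large arm. Other peaks and background regions were not counted by arm, so whether this is particular to these members was not tested.

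Some members had another peak nearby. Another thresholded summit lay within 500 bp of 119 (15.1%), within 1000 bp of 244 (31.0%) and within 2000 bp of 387 (49.2%). The same shares over all thresholded peaks were not measured, so whether they are particular to these members was not tested. Merging overlapping member intervals left 740 regions. They fell in 602 host genes, of which 476 had 1 member, 94 had 2 and 32 had 3 or more.

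The genes with the most members carried them over long stretches. CG1677 had 7 members, with signals from 125 to 768, and Tlk, a kinase that acts on chromatin assembly, had 7 from 142 to 715. shn, a zinc finger cofactor of Dpp signalling, had 6 from 131 to 769. Those in CG1677 spanned 87687 bp and those in Tlk 56704 bp, so they are not 1 broad region. Of the 5 hosts with 5 members, sbb, Tpr2, Svil and tou are named here. There were 4 each in HmgZ, brat, Syp, Samuel and Acsl. brat, a translational repressor, had the highest floor of this group, with 273 to 817. There were 3 in each of wit, NFAT, ckn, tun, CHES-1-like, px, Src64B, ASPP, psq, Diap1, magu, Eip75B, CG15365, CG32719, ena, CG43658, Paip2, Shrm and aop. The 3 in wit, a type II receptor of the BMP family, fell within 578 bp and reached 1024, and the 3 in aop, an ETS repressor, stayed between 125 and 135. These genes hold the summits, but the nearest start was not always their own. For the strongest summit in CG1677 it was that of brk, 1977 bp away. For the strongest in sbb, Svil and tun it was that of CG14505, Cyp4d20 and Zasp52.

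Many host genes also had a peak at a start site. Of the 602 hosts, 236 (39.2%, 35.4 to 43.2) had a thresholded summit within 500 bp of one of their own starts. Among the 8435 genes with eligible intron but no member, 1235 (14.6%, 13.9 to 15.4) had one. Genes with members offered more room, with a median of 3217 bp of eligible intron against 323 bp. Within genes of over 3000 eligible bp the shares were 45.5% (40.2 to 50.9) and 20.9% (18.003 to 24.2), and at 1000 to 1500 bp 27.3% (20.1 to 35.8) and 14.2% (12.3 to 16.4). The share was higher with a member in each of the 5 length classes. These classes count the 637 genes with a member within the gene body, not the 602 hosts. The number of starts per gene was not counted, so its part in these shares was not tested. At up to 500 bp, with 16 genes that had a member, the intervals were 14.2 to 55.6 and 12.4 to 14.3.

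The bases under the summits were poor in G and C, and those beside them were rich. GC content was 33.4% ± 7.91 (SD, n = 786 windows) within 50 bp of the summit and 44.7% ± 8.74 in windows 250 bp to either side. Windows placed every 50 bp over all eligible introns averaged 39.1%, so the summits were below and the flanks above that mean. The introns that hold members were not averaged apart. Windows of 51 bp centred 750 bp past the member summits averaged 41.0%. Few flank windows were centred in an exon (8.02%), and without those the flank mean was 44.3% ± 8.61. The summit was poorer in GC than both flanks in 574 members (73.03%). In background regions under the same rule the means were 41.2% ± 9.20 and 43.0% ± 9.38, with 36.3% of summits below both flanks.

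The dip was shared with the other peaks. Intron peaks over 2000 bp away had 33.0% ± 7.48 at the summit and 46.2% ± 8.75 in the flanks, and peaks within 500 bp of a start site 34.2% ± 9.60 and 43.9% ± 9.92. GC content at the summit was lower in stronger members, with a mean of 31.3% in the 262 strongest, 33.5% in the middle and 35.5% in the weakest 262. The flanks were not measured by signal.

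**Figure D3:**
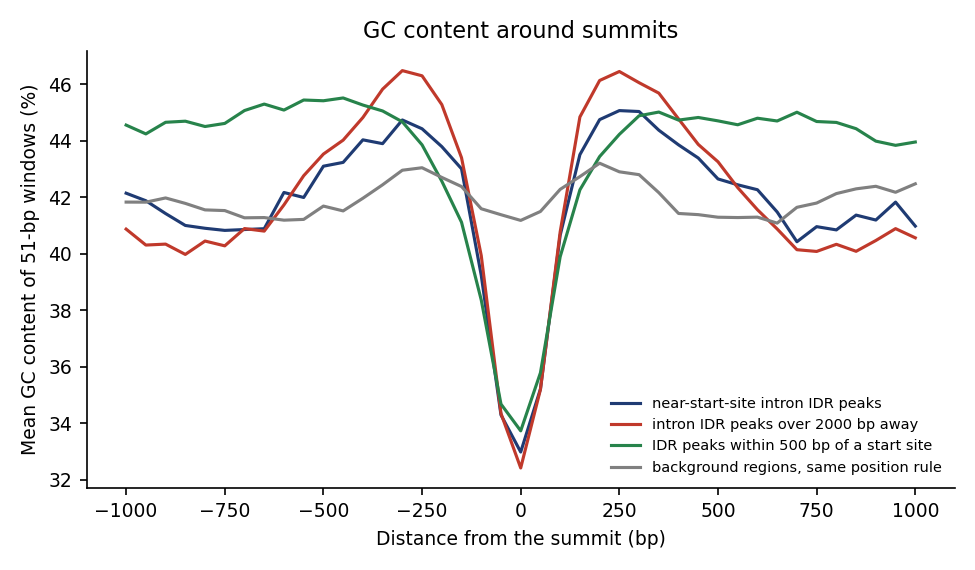
Mean GC content of 51-bp windows against distance from the summit, for the near-start-site intron peaks, the other 2 large classes of thresholded peaks and background regions under the same positional rule. The near-start-site intron peaks go from about 41.0% at 750 bp up to 45.1% at 250 bp and down to 33.0% at the summit, where the background curve stays at 41.2%.

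The forkhead core had a share under these summits whose interval takes in its share over introns of the same kind. TAAACA, searched on both strands, lay within 50 bp of 97 summits (12.3%, 10.2 to 14.8), against 9.35% (8.01 to 10.9) of flank windows and 11.8% of the windows over all eligible introns. AACATA, which has the same letters in another order, was in 9.80% of summit windows, 5.34% of flanks and 7.84% of all eligible windows. From flank to summit its share changed by a ratio of 1.83, and that of the core by 1.32. The longer GTAAACA, which contains the core, was in 28 windows (3.56%, 2.48 to 5.10), beside 2.68% of all eligible windows, 2.33% of the deeper intron peaks and 3.24% of background regions. ATAAACA was in 33 (4.20%, 3.00 to 5.84), beside 4.62% of all eligible windows. GACGC, an alternate site described for some forkhead proteins, was in 24 (3.05%, 2.06 to 4.50) and in 8.84% of flanks and 6.61% of all eligible windows.

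TAAACA was in 15.3% of the 262 strongest members, 9.92% of the middle and 11.8% of the weakest 262, with no steady order. The reordered AACATA was in 8.78%, 9.92% and 10.7% of the same groups. The difference between core and control in the strongest group was not tested. TAAACA occurred more than once in 9 members. A match here is only a match of letters, and does not mark a site that fd59A occupies.

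The motifs of other factors were also read beside reordered letters. GATAA, the GATA factor core, was in 22.1% of summit windows, 17.9% of flanks and 21.9% of all eligible windows. Its share at the summits was thus close to that over introns of the same kind. The reordered AGTAA was in 25.8%, 15.2% and 19.9%. TAATTA, the common homeodomain core, was in 82 summit windows (10.4%, 8.48 to 12.8), 3.69% of flanks and 8.37% of all eligible windows. The reordered ATTATA, with the same letters, was in 14.4%, 5.47% and 10.7%. GAGAG, read by the GAGA factor, was in 72 (9.16%, 7.34 to 11.4), against 19.3% (17.5 to 21.4) of flanks and 11.2% of all eligible windows. Its share was 5.73% in the 262 strongest members and 12.2% in the 262 weakest. The core-promoter element TATCGATA, bound by DREF, was in 1 member (0.127%, 0.0225 to 0.717) and in 1.53% (1.03 to 2.27) of the peaks within 500 bp of a start site.

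Over all 2080 sequences of 6 letters, counted on both strands, the largest gains from flank to summit were all made of A and T. AAAATA was in 17.4% of flank windows and 35.5% of summit windows, and TTAAAA was in 12.2% and 30.03%. The next 8, from ATTTTA at 28.2% of summit windows to ATATTA at 18.7%, were likewise free of G and C. The largest drops were in sequences with G or C. GCAGCA was in 11.9% of flanks and 4.20% of summit windows, CACACA in 13.7% and 6.36%, and GCGGCA in 9.10% and 2.04%. The same AAAATA was in 23.6% of all eligible windows and in 36.2% of summits in deeper introns.

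The share of genes with a member ran from 0 to 50% over the gene lists, highest in growth factor signalling. Over all protein-coding genes, 637 of the 9072 with eligible intron (7.02%) had a member within the gene body, at 80.1 members per Mb when a member in overlapping genes is counted in each. The lists that follow were drawn up with earlier results of these data known, and their counts are descriptions with no test. Many listed genes are long, so the density over each list's eligible introns stands beside its share. Background regions varied too, from 0 per Mb in the Hedgehog list to 489 in the Notch list, against 235 over all genes. They stood at 303 in the EGF receptor list, 317 in the Dpp list and 409 in the chromatin list, but at 214 in forkhead genes.

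In the EGF receptor, FGF and Ras pathway, 14 of 28 genes had a member, at 257 per Mb (149.9 to 412). edl had the strongest at 1106, followed by the receptor Egfr at 488 and the kinase Raf at 452.5. The Egfr summit had 276 in replicate 2 and 205.4 in replicate 3. The list also held ligands, with spi at 156, and the feedback inhibitors aos at 154 and sty at 258, named after their values were seen.

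Dpp and activin genes had members in 6 of 21, at 261 per Mb (143 to 438), with 6 of the 14 members in shn. wit, with 1024, and the glypican dlp, with 664, were the other leading genes. In the JNK, AP-1 and JAK/STAT list, 6 of 20 genes had one, at 244 per Mb (117 to 449), led by Stat92E at 459.5, msn, a kinase upstream of JNK, at 434, and kay, the fly Fos, at 375. Polycomb, trithorax and chromatin genes had 7 of 43, at 306 per Mb (171 to 505). There HmgD and HmgZ overlap and have 4 members each, 3 of them shared and counted in both, and Trl follows.

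Of the 10 forkhead genes with eligible intron, 2 had members, at 357 per Mb over only 0.0140 Mb (116 to 833). jumu had 2, the stronger with 816 in the pooled list, 455 in replicate 2 and 377 in replicate 3. CHES-1-like had 3, the strongest with 551, 253 and 297. fd59A itself (2R, 22868159 to 22870706) has 320 bp of eligible intron and had neither a member nor a background region there.

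Lists tied to the prepupal stage were mixed. Of the ecdysone response genes, 6 of 20 had a member, at 105 per Mb (42.4 to 217), led by ImpL2 at 1472, the ETS factor gene Eip74EF at 895 and ken at 232. Of the nuclear receptors, 3 of 18 had one, at 77.0 per Mb (24.999 to 179.7). They were Eip75B at 307, Hr4 at 151 and EcR, the ecdysone receptor, at 107, near the bottom of the list at rank 5296.

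The remaining signalling lists had 2 to 6 genes each. Wnt genes had 6 of 21, at 137 per Mb (55.3 to 283), led by the receptor gene fz2 at 612, the kinase sgg at 374 and Notum at 196. Hedgehog genes had 2 of 11, at 264 per Mb (32.0 to 955), the receptors boi at 471 and ptc at 131. Notch genes had 2 of 15, at 97.9 per Mb (20.2 to 286), neur and numb at 158. Hippo genes had 3 of 17, at 156 per Mb (50.8 to 365), led by Diap1 at 423, wts at 227 and dco at 192. Insulin and TOR genes had 2 of 22, at 63.0 per Mb (7.63 to 228), Lk6 and ImpL2.

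Among regulators, 12 of 51 genes in the basic helix-loop-helix, zinc finger and proneural list had a member, at 114.7 per Mb (68.0 to 181). In front were ush, NK7.1 at 763 and psq at 427. NK7.1, a homeobox gene, was counted in this list and not in the homeodomain list. RNA-binding and translation genes had 12 of 37, at 106 per Mb (62.7 to 167), led by brat at 817, shep at 776 and Rbp9 at 543. The brat summit was nearest the start of Polr1D. In the homeodomain and selector list 3 of 60 had one, at 22.3 per Mb (4.59 to 65.1), namely zfh1 at 712, so at 202 and Abd-B at 178. The start nearest to the summit in so was that of CG11145. The introns of this list were not empty of background regions, which stood at 186 per Mb against 235 over all genes.

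Both neuronal lists had densities below the 80.1 per Mb of all genes. Ion channel and synaptic genes had 3 of 51, at 25.4 per Mb (8.24 to 59.2), in rg, Shaw and dlg1 with signals of 207, 181 and 121. Axon guidance and adhesion genes had 11 of 68, at 52.9 per Mb (28.9 to 88.8), led by kirre at 699, Ptp10D at 665 and NetB at 330. These genes hold the summits, but the nearest start was that of CG32795 for kirre and of hog for NetB. For rg it was that of CG15465. Cytosolic ribosomal protein genes had none in 46, but supplied only 0.0128 Mb, so a density of up to 287 per Mb is allowed by the Poisson limit.

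**Figure D4:**
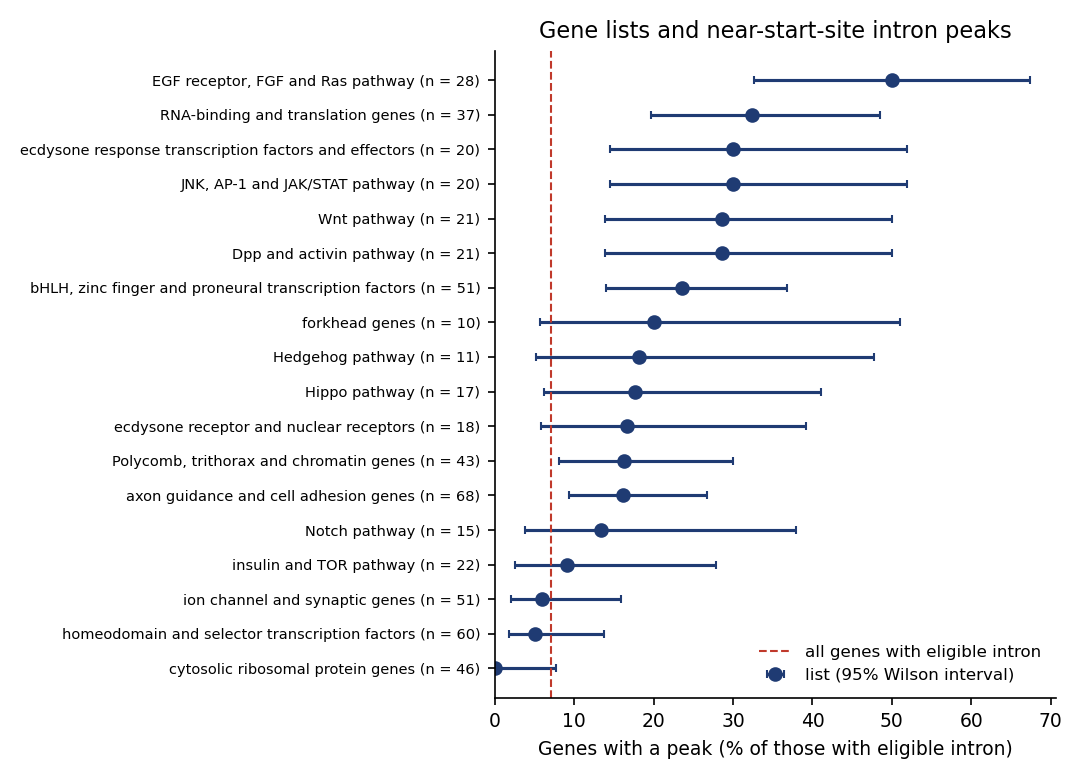
Share of genes in each list with a near-start-site intron peak, in percent of the list's genes with eligible intron (n in the label), with 95% Wilson intervals and a dashed line at the 7.02% of all such genes. The EGF receptor, FGF and Ras list is highest at 50%, the RNA-binding list next at 32.4%, and the homeodomain list, at 5.0%, and ribosomal protein genes are the lowest.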

How the data were processed

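Peaks were listed in dm6 for biological replicates 2 and 3, for their pooled data and for the reproducibility-thresholded (irreproducible discovery rate, IDR) set. The signal value of each region was deposited by the authors. Neither the caller, nor its scaling of signal, nor the IDR threshold is stated in the sources used here, and sequencing depth is unknown. The deposited dm3 lists were not used here.

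Summits were placed on Ensembl release 115 gene models, on the dm6 sequence from RefSeq, with exons of annotated transposable elements counted as exons. A host was the protein-coding gene around the summit. Motifs were counted in windows reaching 50 bp to each side of the summit, in flanks 250 bp away, and in windows every 50 bp over all eligible introns. Shares have 95% Wilson intervals and densities exact Poisson intervals, which cover counting error only. No test was run: there is 1 group of 2 replicates.

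Named genes were those of the 20 strongest members, hosts of 3 or more members, the 3 genes with the strongest member in each list, the summits at each edge of the distance range, and fd59A. Members and lists were chosen with earlier results of these data known. Of 727 distinct list symbols, 20 had no entry under that name and were left out, and 1 list, with its leading genes, and 1 host of 5 members are not reported here. Alternatives varied peak number, replicate, start sites, distances and windows, and one, leaving out transposable element exons, was chosen after seeing the data. The code was tested on simulated data. The tools were pandas 2.3.3, numpy 2.4.6, scipy 1.17.1 and matplotlib 3.10.9 under Python 3.11.15.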

Additional observations from a re-analysis of the deposited data

How the results depend on the processing

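Of 126 values recomputed under alternative settings, 94 stayed close and 32 moved. Close means within 1.5 times for counts and densities, within the Wilson interval for shares and within the SD between replicates for GC content. Among those called close, 1 start site per gene gave 606 members at 86.2 per Mb and the range to 3000 bp gave 1056 at 72.7, both densities outside the Poisson interval of the reported one. No paired analysis was possible because there is only 1 group. With only the upper 50% of the peaks by signal there were 406 members, 40.9 per Mb, 97.8% matched in both replicates, 41.6% among the strongest 1000, a GC content of 32.1%, GAGAG in 6.16% and a promoter peak in 27.9% of hosts. With the strongest 1000 there were 169 members, 17.0 per Mb, 99.4% matched, 92.3% nearest their own gene's start, a GC content of 30.4%, TAAACA in 15.98%, GAGAG in 2.96% and a promoter peak in 17.6% of hosts; the share among the strongest 1000 has no value there. Fewer peaks lower the counts, densities and promoter shares by construction. With each replicate left out, GC content ranged from 33.1% to 34.4%. With 1 start site per gene, 87.5% lay in a first intron, 82.3% were nearest their own gene's start, 85.3% lay downstream of it and 47.2% of hosts had a promoter peak. With start sites of every gene type, 80.5% were nearest their own. At over 1000 to 2000 bp there were 439 members at 72.0 per Mb, also outside that interval, with 79.95% in a first intron. Matching within 50 bp gave 74.4% in both replicates and within 200 bp 98.7%. Windows of 100 bp to each side gave a GC content of 35.3%, TAAACA in 23.4%, GATAA in 41.3%, TAATTA in 17.6% and GAGAG in 21.6%, as longer windows hold more matches. Promoters of 250 bp gave 23.1% of hosts and of 1000 bp 70.6%. The promoter of 1000 bp overlaps the distance range that defines the members. A member within 1000 bp of its host's own start thus counts as a promoter peak of that host. The share of 70.6% is therefore raised in part by construction. For other moves the cause was not tested. Depth is unknown, so what it limits was not tested.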
